A study of Mus musculus with 6 samples.

Results

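Transcripts of 10 genes associated with the epithelial layer of the lens were followed in newborn mouse lenses with and without Hsf4. They are the adhesion and junction genes Cdh1 and Gja1, the secreted Wnt modulators Sfrp1 and Sfrp2, and the transcription factor gene Tfap2a. Further members are the membrane glycoprotein gene Pdpn, Igfbp5 for a secreted growth factor binding protein, and Sparc for a secreted matrix protein. The transporter genes Slc38a3 and Abca8a complete the set. All probe sets that the platform annotation gives to exactly 1 of these symbols were taken, with Tcfap2a read as Tfap2a, which gave 22 probe sets for 10 genes among 22626 probe sets tested and 12393 genes represented on the array. The arrays held 3 Hsf4-null lens samples and 3 wild-type lens samples, all newborn and all of the ICR strain, described as biological replicates, with 50 ng of total RNA amplified for each array. How many animals or lenses went into each sample is not stated in the sources used here.

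The lens epithelium is a single sheet of cells under the anterior capsule. Its cells divide, keep the lens supplied with ions, amino acids and water, and move to the equator, where they stop dividing and elongate into fiber cells. E-cadherin marks the epithelial side of this step, since fiber cells lose it and keep N-cadherin. Hsf4, a heat shock transcription factor, is expressed in the lens and its loss causes cataract in mice and humans. Whole lenses were measured here, so the epithelium was read together with the much larger fiber mass, and fewer epithelial cells and less RNA per epithelial cell cannot be told apart.

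Most of these genes had nearly the same level in Hsf4-null and wild-type lenses. By its brightest probe set, the one with the highest mean over the 6 arrays, 8 of the 10 genes lay within 0.25 of wild-type on the log2 scale. These 8 include Abca8a, which lay below the array medians, and the share of all genes within that limit was not counted. The exceptions, Igfbp5 and Sfrp2, ran in opposite directions. Igfbp5, which encodes an insulin-like growth factor binding protein, was lower in Hsf4-null lenses by both of its probe sets, of which 1 passed the test. Sfrp2, which encodes a secreted frizzled-related protein, had the highest estimate, 1.55 on the log2 scale, with a spread between arrays so wide that it did not pass.

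Across the 22 probe sets, 16 estimates were below 0 and 6 above, and 1 probe set was called lower and 0 higher at a Benjamini-Hochberg adjusted p under 0.05 from limma. That is 4.55% of the member probe sets, beside 2.66% called over the whole array (1.94% lower and 0.72% higher). By gene, 1 of the 10 had any probe set called, beside 3.69% of all genes (2.76% lower and 0.944% higher). At an unadjusted p under 0.05 there were 3, namely both of Igfbp5 and that of Sfrp2, where 15.4% of all probe sets lay under that value. The arrays of the groups did not overlap for 5 probe sets, 3 lower and 2 higher, beside a background of 21.1% (11.7% lower and 9.37% higher). The median log2 fold change was -0.064 over the member probe sets and 0.003 over all probe sets. These shares are near or below the background, apart from the single Igfbp5 call. For 18 of the 22 probe sets the 95% interval lay inside a 1.5-fold change either way. The remaining 4 were Sfrp2, both Igfbp5 probe sets and 1 of 3 for Tfap2a. The share of all probe sets with such an interval was not counted. Member probe sets had a median within-group SD of 0.127, against 0.156 for all probe sets. Array signals are compressed near both ends of the scale, so a fold change there is understated.

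**Figure D1:**
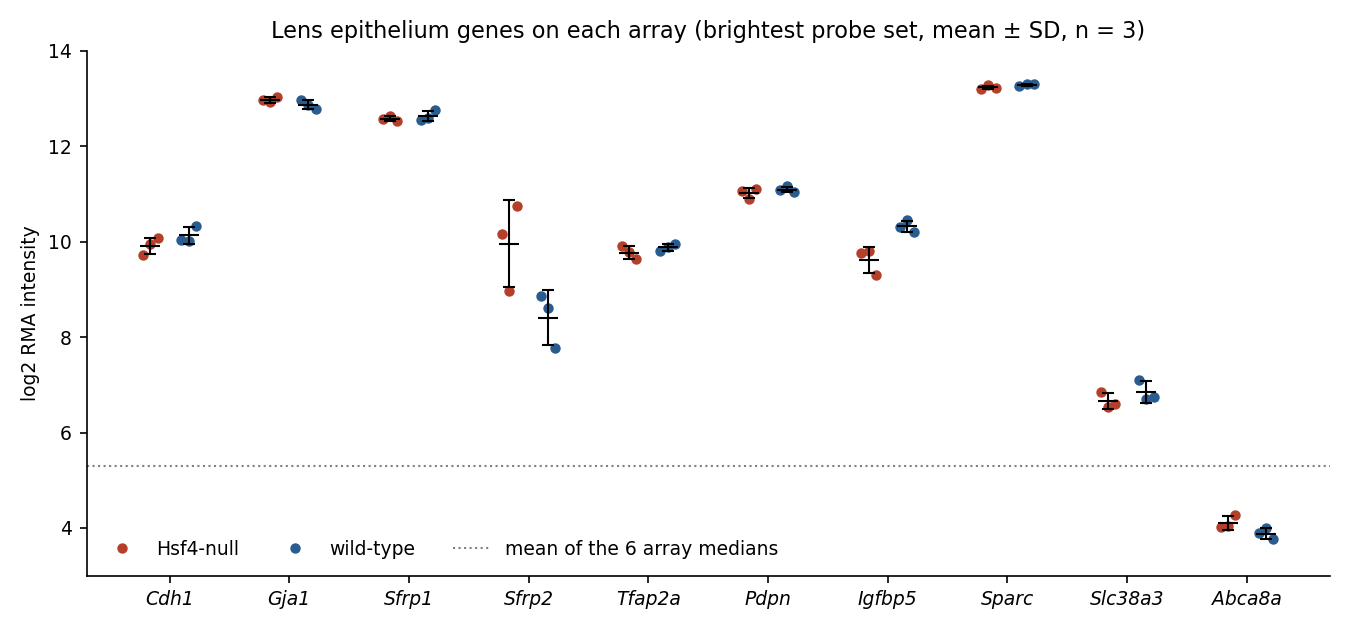
Log2 RMA intensity (y axis) of the 10 genes (x axis) by the brightest probe set, with 1 point per array, Hsf4-null in red left of wild-type in blue, and bars for the mean ± SD (n = 3 each). Sfrp2 has the widest spread and Igfbp5 is lower on each Hsf4-null array, while Abca8a lies under the dotted line, the mean of the 6 array medians.

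The arrays were alike in scale, with median intensities from 37.4 to 41.6, and log2 values correlated at 0.991 to 0.994 within a group and at 0.982 to 0.990 between groups. Hsf4 itself, which checks the labels, had log2 intensities of 4.26, 4.09 and 3.78 on the Hsf4-null arrays, against 9.09, 9.39 and 9.56 on the wild-type arrays. The sources used here do not state whether its probes fall within the deleted sequence. Lens identity was plain from the 14 measured crystallin genes, with mean log2 intensities of 13.81 to 13.89 on the Hsf4-null arrays and 13.90 to 13.93 on the wild-type arrays, near the highest value on any array, 14.37.

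Cdh1 encodes E-cadherin, the calcium-dependent adhesion protein of epithelial junctions. Its single probe set read 9.73, 9.94 and 10.07 on the log2 scale in Hsf4-null lenses, against 10.04, 10.02 and 10.33 in wild-type lenses. The groups overlapped, because the highest Hsf4-null array lay above 2 of the 3 wild-type arrays. The means were 9.91 ± 0.17 in Hsf4-null lenses and 10.13 ± 0.17 in wild-type lenses (SD, n = 3 each), a log2 fold change of -0.22 (standard error, SE, 0.13, adjusted p = 0.496 from limma). The interval of the ratio, 0.69 to 1.07, includes an equal level in both.

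Genes that work with E-cadherin at the junction were not called either. Of 18 measured genes of the cadherin-catenin and tight junction list, 0 were higher and 0 lower, with a median log2 fold change of -0.06. Over the array, 2.88% of genes were called in either direction by the brightest probe set. At so low a share, 0 calls in a list this short, here or below, do not set it apart from other genes. N-cadherin (Cdh2), which fiber cells share with the epithelium, had a log2 fold change of -0.16 (SE 0.11), and P-cadherin (Cdh3) had -0.05 (SE 0.09) at an intensity below the array medians.

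Gja1 encodes connexin 43, the gap junction channel of the lens epithelium. Its brightest probe set read 12.96, 12.93 and 13.04 in Hsf4-null lenses, against 12.96, 12.87 and 12.78 in wild-type lenses. The ranges overlapped and the log2 fold change was 0.10 (SE 0.10, adjusted p = 0.672 from limma), with a ratio between 0.92 and 1.26. All 6 probe sets gave the same picture, with log2 fold changes from -0.03 to 0.17, of which 3 were below 0. Of these, 4 carry the suffix x, the platform's mark for probes that may match other sequences as well, and the dimmest, at 4.80 to 5.45, lay around the array medians.

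Among the other connexins, Gja3, whose channel joins fiber cells, read close to wild-type, with a log2 fold change of -0.04 (SE 0.12). Gjc1, which encodes connexin 45, was the only one of 11 measured connexins past the threshold, beside a background of 2.88% of genes called in either direction by the brightest probe set. It read 8.44, 8.40 and 8.61 in Hsf4-null lenses, against 7.98, 7.83 and 7.52 in wild-type lenses, and rose by 0.70 (SE 0.14, adjusted p = 0.0426 from limma). The groups did not overlap, but the call was lost when any single Hsf4-null array or wild-type replicate 2 or 3 was left out (adjusted p = 0.0918 to 0.159). Of the 11 connexins, 8 were below the median of every array.

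Sfrp1 and Sfrp2 encode secreted proteins with a domain like that of the frizzled receptors, through which they bind Wnt ligands outside the cell. Sfrp1 stayed close to wild-type. Its brightest probe set read 12.58, 12.64 and 12.53 in Hsf4-null lenses, against 12.54, 12.60 and 12.76 in wild-type lenses, with overlapping groups and a log2 fold change of -0.05 (SE 0.10, adjusted p = 0.864 from limma, ratio 0.82 to 1.14). The 4 Sfrp1 probe sets gave -0.20 to 0.12, of which 3 were below 0, so no direction could be given.

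Sfrp2 read 10.17, 8.96 and 10.74 on the log2 scale in Hsf4-null lenses, against 8.86, 8.60 and 7.77 in wild-type lenses. Each Hsf4-null array was above each wild-type array, but by only a small margin where Hsf4-null replicate 2 met wild-type replicate 1. The means were 9.96 ± 0.91 in Hsf4-null lenses and 8.41 ± 0.57 in wild-type lenses (SD, n = 3 each), a ratio of 2.92 with a 95% interval of 1.41 to 6.06. The log2 fold change of 1.55 (SE 0.45) did not pass (adjusted p = 0.154 from limma). The within-group SD of 0.758 exceeded that of 99.4% of all probe sets, whose median was 0.156. Without Hsf4-null replicate 2, the log2 fold change was 2.05 and the call was made (adjusted p = 0.0388), while over the other alternatives run, which included leaving out each other array, the adjusted p was 0.082 to 0.422.

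Markers of tissues next to the lens also differed between these arrays. The 10 measured pigment cell markers, of which 0 were called and 3 lay below the array medians (Slc45a2, Rpe65 and Gpr143), averaged 7.13, 6.58 and 7.13 on the log2 scale in Hsf4-null lenses, against 6.72, 6.45 and 5.88 in wild-type lenses. Their summed intensity ran from 3891 to 5272 in Hsf4-null lenses and from 3165 to 4449 in wild-type lenses. The highest of these values were on Hsf4-null replicates 1 and 3 and the lowest on wild-type replicate 3, which is also where Sfrp2 was highest and lowest. Mitf, the brightest pigment marker, differed little, at 0.03 (SE 0.10). The order was not particular to pigment markers. Macrophage markers summed to 2607, 1363 and 2117 in Hsf4-null lenses, against 1985, 1879 and 779 in wild-type lenses, with the same arrays highest and lowest. The 13 measured retina markers, of which 0 were called and 1 (Rcvrn) was below the array medians, followed another order, with summed intensities of 2482, 377 and 2458 in Hsf4-null lenses, against 866, 1989 and 576 in wild-type lenses. Their part in the Sfrp2 values was not tested.

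Markers of mesenchyme, vessels and macrophages had higher sums on most Hsf4-null arrays. In the mesenchyme list 2 of 13 genes were higher, beside a background of 0.775% of genes called higher, and 4 were below the array medians. This list, like the others, was chosen with earlier results of these data known. The list median was 0.17, with 10 estimates above 0 and 3 below. Summed intensities were 2346 to 2882 in Hsf4-null lenses and 2035 to 2462 in wild-type lenses. In these sums the brightest genes weigh most, namely Pdgfra, at -0.06 (SE 0.15), and Col1a1. Col1a1, a chain of collagen I, read 9.07, 9.18 and 9.55 in Hsf4-null lenses, against 6.81, 8.12 and 7.20 in wild-type lenses, and rose by 1.89 (SE 0.31, adjusted p = 0.0201 from limma), a call lost without any single Hsf4-null array or without wild-type replicate 3 (adjusted p = 0.0513 to 0.095). Col1a2, for the other chain of collagen I, was not called, at 0.07 (SE 0.44). Twist1, a mesenchymal transcription factor gene, read 5.05, 4.74 and 4.97 in Hsf4-null lenses, against 3.95, 3.97 and 3.84 in wild-type lenses. It passed the test at 1.0 (SE 0.11, adjusted p = 0.00341), but all 6 values were below the array medians, so the size of the difference and whether the transcript was present in wild-type lenses are uncertain. The 14 vascular markers had summed intensities of 2925 to 3021 in Hsf4-null lenses and 2009 to 2758 in wild-type lenses, and the 16 macrophage markers 1363 to 2607 in Hsf4-null lenses and 779 to 1985 in wild-type lenses, with 0 genes called in either list, 3 vascular and 5 macrophage markers below the array medians. The part of these cells in the member values was not tested.

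**Figure D2:**
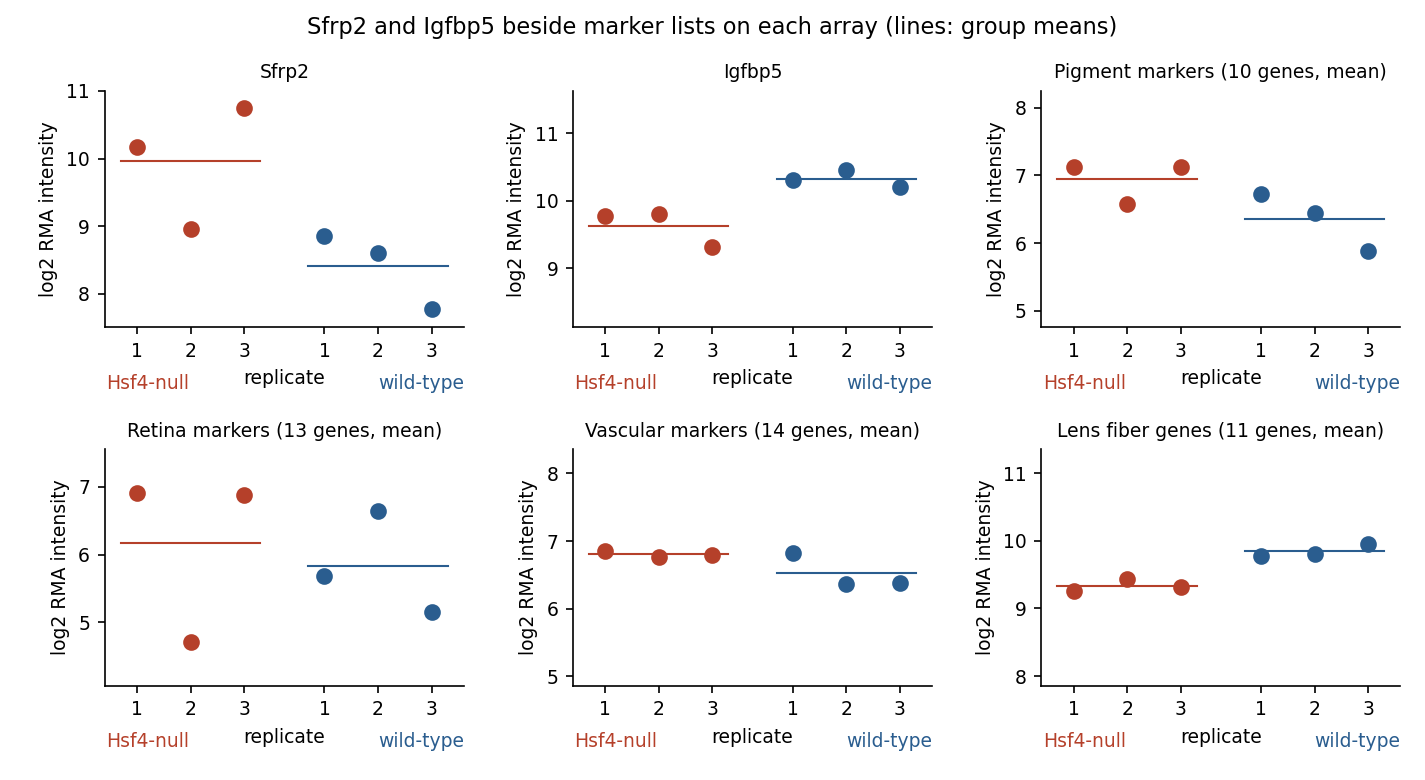
Log2 RMA intensity (y axis) of Sfrp2, of Igfbp5 by its brightest probe set, and of the mean over 4 marker lists, on each array (x axis, replicate 1 to 3 of Hsf4-null in red and of wild-type in blue, lines for group means). All panels span the same log2 range. Sfrp2 and the pigment markers are highest on Hsf4-null replicates 1 and 3 and lowest on wild-type replicate 3, while Igfbp5 and the mean of the lens fiber genes are lower on all 3 Hsf4-null arrays.

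Other genes of the Wnt pathway gave 1 call. Of 13 measured Wnt antagonists, 0 were higher and 0 lower, beside 2.88% of all genes called in either direction. Their median log2 fold change was -0.04, and 8 were below the array medians. The related genes Sfrp4, Sfrp5 and Frzb had log2 fold changes of -0.05 (SE 0.13), -0.09 (SE 0.10) and -0.21 (SE 0.19). Sfrp4 and Sfrp5 were below the array medians, where a difference could not be told from background. Of 22 receptors and targets, 0 were higher and 1 lower, beside a background of 2.11% of genes called lower, with a median of -0.02. That 1 was Fzd2, which encodes a frizzled receptor and read 8.21, 7.73 and 8.63 in Hsf4-null lenses, against 9.55, 9.60 and 9.23 in wild-type lenses. It fell by 1.27 (SE 0.22, adjusted p = 0.0273 from limma), without overlap of the groups. The call was lost without Hsf4-null replicate 1 or without any single wild-type array (adjusted p = 0.0522 to 0.108), and the other 2 probe sets of Fzd2, both much dimmer, did not pass at -0.62 and -0.11.

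Tfap2a encodes AP-2 alpha, a transcription factor of the surface ectoderm that is kept in the lens epithelium and not in fiber cells. Its brightest probe set read 9.90, 9.79 and 9.63 in Hsf4-null lenses, against 9.80, 9.89 and 9.95 in wild-type lenses. These overlapped, at a log2 fold change of -0.11 (SE 0.11, adjusted p = 0.69 from limma, ratio 0.78 to 1.10). A different probe set read 9.16, 9.11 and 9.24 in Hsf4-null lenses, against 9.33, 9.26 and 9.42 in wild-type lenses, without overlap but with a small log2 fold change of -0.16 (SE 0.10, adjusted p = 0.473). All 3 estimates were below 0, from -0.31 to -0.11, and none passed.

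Of the other AP-2 genes, Tfap2b and Tfap2c varied between arrays far more than Tfap2a did, while Tfap2d, which was below the array medians, had a within-group SD of 0.257, close to the 0.25 of the most variable Tfap2a probe set. Tfap2b, which is also expressed in neural retina, read 6.48, 3.65 and 5.83 in Hsf4-null lenses, against 4.70, 5.47 and 4.25 in wild-type lenses. Tfap2c read 7.48, 5.32 and 7.04 in Hsf4-null lenses, against 5.69, 7.40 and 5.33 in wild-type lenses. Both were lowest on Hsf4-null replicate 2 and high on the arrays where the retina markers were high, and 0 of 3 measured AP-2 relatives were called. The brightest Tfap2a probe set spanned only 9.63 to 9.95 over the same 6 arrays.

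Pdpn encodes podoplanin, a mucin-type membrane glycoprotein that links to the actin cytoskeleton through ezrin and moesin. It read 11.06, 10.90 and 11.11 in Hsf4-null lenses, against 11.09, 11.16 and 11.03 in wild-type lenses. The groups overlapped almost fully, with a log2 fold change of -0.07 (SE 0.10, adjusted p = 0.805 from limma) and a ratio between 0.81 and 1.12. Of 9 genes listed as its partners, 0 were higher and 1 lower, beside 2.11% of all genes called lower, with a median of -0.07. Cd44, which encodes a hyaluronan receptor that binds podoplanin, read 7.73, 7.33 and 7.13 in Hsf4-null lenses, against 8.75, 9.01 and 8.85 in wild-type lenses. It fell by 1.47 (SE 0.16, adjusted p = 0.00317 from limma) without overlap of the groups, and this call was kept whichever array was left out. Its other probe set passed narrowly at -0.60 (SE 0.12, adjusted p = 0.0456 from limma), but lay below the array medians.

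Igfbp5 encodes a secreted protein that binds insulin-like growth factors and extracellular matrix and so sets how much free growth factor reaches its receptor. Its upstream sequence is shown because Igfbp5 holds the only call among the 10 genes and Hsf4 is a DNA-binding factor. Heat shock factors bind repeats of the letters GAA in alternating orientation, and 2 such units facing each other or back to back read GAANNTTC or TTCNNGAA, which are their own reverse complements, so a search covers both strands, and the motifs can overlap. The 250 bases before the transcript start, on the minus strand at chr1:72874866-72875115 of GRCm38.p6 from RefSeq, run 5′ to 3′ with the match in capitals:
Igfbp5: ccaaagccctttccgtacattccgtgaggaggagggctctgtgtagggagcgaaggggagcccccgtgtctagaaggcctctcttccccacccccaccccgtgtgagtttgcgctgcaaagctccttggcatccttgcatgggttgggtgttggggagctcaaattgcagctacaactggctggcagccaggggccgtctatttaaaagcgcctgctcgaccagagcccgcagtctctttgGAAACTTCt
The match, a GAANNTTC motif, starts at position -9 from the transcript start. The promoter source held no entry for Cdh1, Sfrp1 and Slc38a3, so these were not searched. The same window was taken for 8 promoters of the other 7 genes (Abca8a, Gja1, Igfbp5, Pdpn, Sfrp2, Sparc and Tfap2a, which has 2). Of these 8, 2 held a match, that of Igfbp5 and a TTCNNGAA motif at position -148 from the start of Abca8a, beside 12.8% of 32851 mouse promoters (6.69% with GAANNTTC and 7.17% with TTCNNGAA). A run of 3 alternating units, the longer form of the element, were found in 0.466% of promoters and in 0 of the 8. A match of this kind is a description of the letters and no evidence of binding.

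The brighter Igfbp5 probe set read 9.77, 9.80 and 9.31 on the log2 scale in Hsf4-null lenses, against 10.31, 10.45 and 10.21 in wild-type lenses. The other read 7.36, 7.29 and 6.98 in Hsf4-null lenses, against 8.22, 7.85 and 7.95 in wild-type lenses. In both, each Hsf4-null array was below each wild-type array, with Hsf4-null replicate 3 the lowest.

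The dimmer probe set averaged 7.21 ± 0.20 in Hsf4-null lenses and 8.01 ± 0.19 in wild-type lenses (SD, n = 3 each). It fell by 0.80 on the log2 scale (SE 0.14, adjusted p = 0.0301 from limma), a ratio of 0.58 with a 95% interval of 0.46 to 0.72. The brighter averaged 9.62 ± 0.27 in Hsf4-null lenses and 10.32 ± 0.12 in wild-type lenses (SD, n = 3 each), with a log2 fold change of -0.70 (SE 0.15), a ratio of 0.62 (0.48 to 0.79) and an adjusted p of 0.0606, just outside the threshold. The 2 probe sets therefore gave like sizes on either side of it. The call of the dimmer was lost when any 1 of the 6 arrays was left out, at adjusted p = 0.0525 to 0.0965 and log2 fold changes of -0.87 to -0.68. Over the alternatives run, the direction was the same each time for both probe sets.

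**Figure D3:**
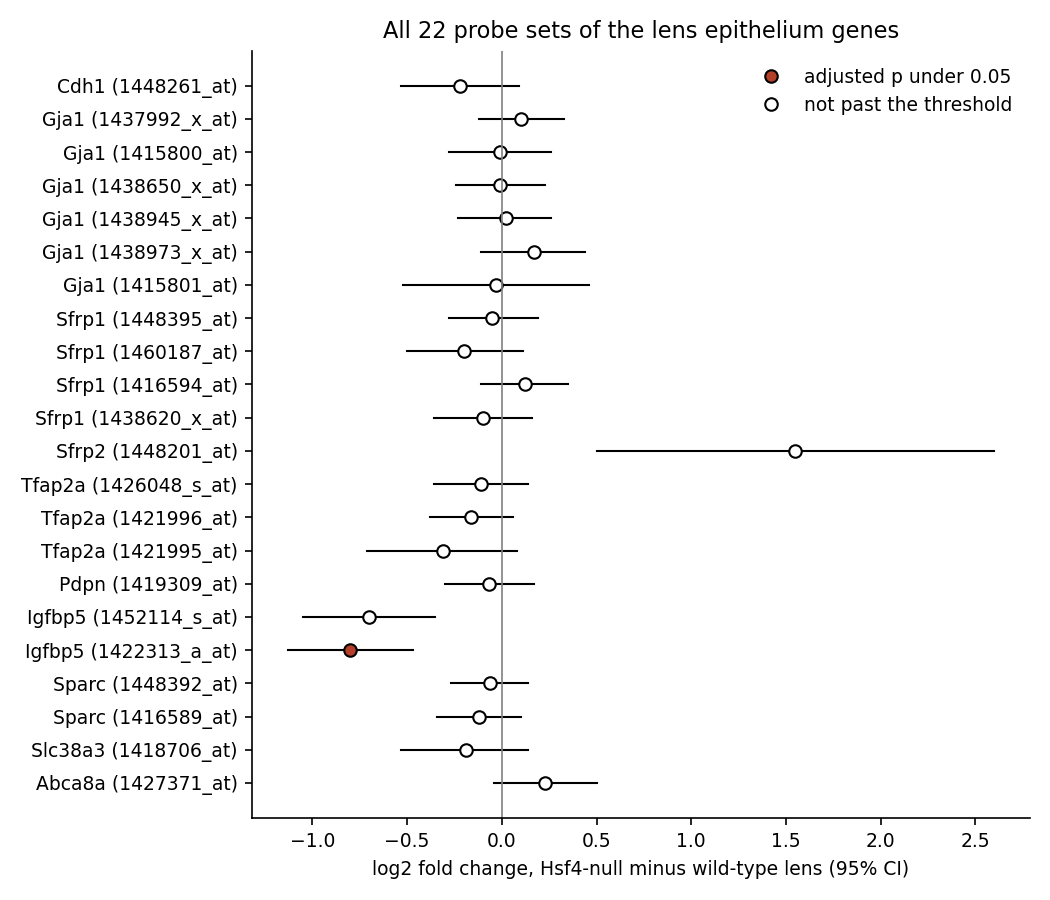
Log2 fold change, Hsf4-null minus wild-type (x axis, point), with its 95% interval from limma (line), for the 22 probe sets of the 10 genes (y axis), each named by gene and probe set. The filled point, an Igfbp5 probe set at -0.80, is the only one past the threshold, and Sfrp2 has the widest interval, 0.50 to 2.60.

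The rest of the insulin-like growth factor system gave 0 calls among 16 measured genes, beside 2.88% of all genes called. Its median log2 fold change was 0.01. Igfbp2 and Igfbp4, other binding proteins, had higher estimates of 0.83 (SE 0.41, adjusted p = 0.399) and 0.40 (SE 0.17, adjusted p = 0.318). Igfbp3 had -0.30 (SE 0.40) and Igfbp7 had -0.20 (SE 0.09), and neither passed.

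Some lens fiber genes were also lower on the Hsf4-null arrays. Of 11 measured genes of that list 5 fell and 1 rose, beside a background of 2.11% of genes called lower. The median was -0.40 against 0.01 for all genes. The list was chosen with earlier results of these data known, so its counts and median describe it and test nothing about fiber genes. The remaining 5 were not called, among them the fiber genes Mip at -0.14 (SE 0.11), Gja3 at -0.04 (SE 0.12) and Cdkn1c at -0.25 (SE 0.14). Bfsp1, for filensin of the beaded filament, fell by 1.65 (SE 0.10, adjusted p = 0.000131 from limma), and Tdrd7, an RNA granule component, fell by 1.34 (SE 0.11, adjusted p = 0.000859). Hopx, an atypical homeodomain protein, rose by 1.58 (SE 0.13, adjusted p = 0.000744). Summed over the list, with 2 genes below the array medians, the intensity was 20019 to 23756 in Hsf4-null lenses and 31250 to 32766 in wild-type lenses, without overlap. Bright genes such as Bfsp1 weigh most in this sum, so it is no measure of fiber content. The part of the fiber genes in the Igfbp5 values was not tested.

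The 3 genes whose levels over the 6 arrays were most like the brighter Igfbp5 probe set, among 6880 genes with a mean above the median of all probe sets, were Me1, which encodes malic enzyme (Pearson r = 0.996), Necap2, an endocytosis adaptor (r = 0.994), and Psmg1, a proteasome assembly chaperone (r = 0.992). These values describe 6 arrays and were picked as the highest of many. Me1 read 7.43, 7.51 and 6.57 in Hsf4-null lenses, against 8.27, 8.47 and 8.21 in wild-type lenses, with a log2 fold change of -1.15 (SE 0.24) that, like those of the other two, did not pass (adjusted p = 0.0534).

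Sparc encodes osteonectin, a collagen-binding matrix protein that the lens epithelium makes and that is needed for an intact lens capsule and a clear lens in mice. Its brightest probe set read 13.20, 13.28 and 13.21 in Hsf4-null lenses, against 13.26, 13.31 and 13.31 in wild-type lenses. The arrays lay close together, with a within-group SD of 0.034, but near the top of the scale, where signals are compressed. The groups overlapped, with a log2 fold change of -0.06 (SE 0.09, adjusted p = 0.796 from limma, ratio 0.83 to 1.11). The second probe set gave -0.12 (SE 0.09, adjusted p = 0.606). Of 21 measured genes of the SPARC family and of capsule collagen IV, laminin, nidogen and proteoglycans, 0 were called in either direction. The share called over all genes was 2.88%, and the list median was 0.04.

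Slc38a3 encodes SNAT3, a sodium-coupled transporter of glutamine, histidine and asparagine. It read 6.84, 6.54 and 6.60 in Hsf4-null lenses, against 7.11, 6.71 and 6.74 in wild-type lenses. Hsf4-null replicate 1 lay above wild-type replicates 2 and 3, and the log2 fold change of -0.19 (SE 0.14, adjusted p = 0.577 from limma, ratio 0.69 to 1.10) did not pass. Of its family, Slc38a1 had an estimate of 0.47 (SE 0.10, adjusted p = 0.0508), just outside the threshold, and Slc38a4 had -0.33 (SE 0.12, adjusted p = 0.251). Of 18 measured genes of amino acid transport and glutamine metabolism 0 were higher and 1 lower, beside 2.11% of all genes called lower, with a median of -0.05. Slc7a8, which encodes the neutral amino acid exchanger LAT2, read 6.60, 6.77 and 6.67 in Hsf4-null lenses, against 7.24, 7.87 and 7.82 in wild-type lenses, and fell by 0.96 (SE 0.17, adjusted p = 0.0303), a call lost without any single Hsf4-null array or without wild-type replicate 2 or 3 (adjusted p = 0.0782 to 0.12).

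Abca8a encodes a member of the ABCA family of lipid transporters. It read 4.01, 4.05 and 4.28 in Hsf4-null lenses, against 3.89, 4.0 and 3.76 in wild-type lenses. The groups did not overlap, but all 6 values were below the lowest array median, 5.22, so whether the transcript was present is uncertain. The log2 fold change was 0.23 (SE 0.12, adjusted p = 0.408 from limma, ratio 0.97 to 1.42). Abca8b, its neighbour in the family, was as dim, with 0.06 (SE 0.12). Of 6 measured ABCA genes 0 were called, beside 2.88% of all genes.

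**Figure D4:**
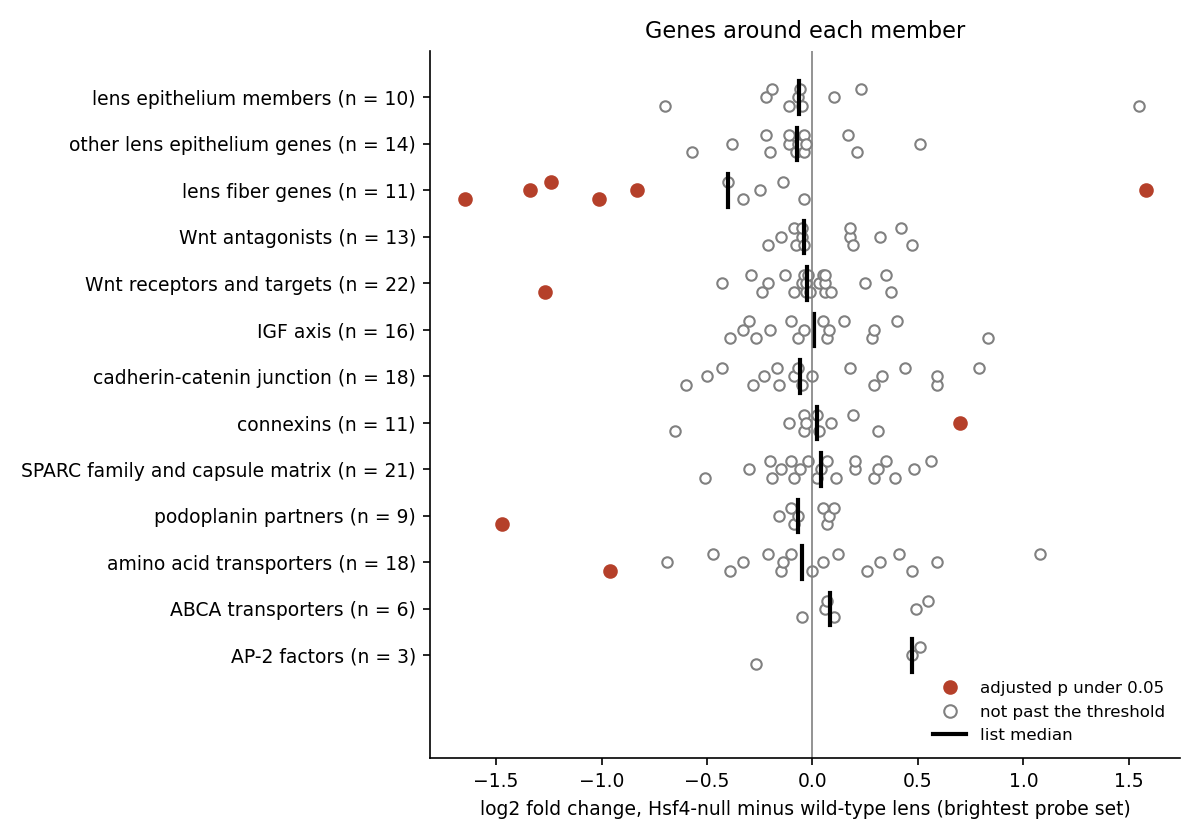
Log2 fold change, Hsf4-null minus wild-type (x axis), of each measured gene by its brightest probe set, for the 10 genes and 12 lists of related genes (y axis), with filled points past the threshold and a black bar at each list's median. The lens fiber list has its median at -0.40 and 6 filled points, while the 10 genes and the other 14 lens epithelium genes have none by this probe set. All lists were chosen with earlier results of these data known.

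Other genes associated with the lens epithelium gave a picture like that of the 10. Of 14 measured genes, which include Pax6, Dkk3 and Foxe3, 0 were called by the brightest probe set with limma, beside 2.88% of all genes. Their estimates were below 0 for 11 and above for 3, and the median was -0.08. Counted by any probe set, as Igfbp5 is above, 1 of the 14 was lower, beside 2.76% of all genes with a probe set called lower. That 1 was Wls. By the brightest probe set, the methods' t-test at an unadjusted p under 0.05 passed 2 genes, Foxe3 and Wls, and both are named after their values were seen. Foxe3, a transcription factor gene that defines this epithelium, read 3.82, 3.82 and 3.75 in Hsf4-null lenses, against 4.17, 4.15 and 4.23 in wild-type lenses, all below the array medians, with a log2 fold change of -0.38 (SE 0.09, adjusted p = 0.0808 from limma). Wls encodes the carrier that brings Wnt proteins to the cell surface. Its brightest probe set read 8.02, 8.27 and 8.16 in Hsf4-null lenses, against 8.46, 8.75 and 8.95 in wild-type lenses, at -0.57 (SE 0.14, adjusted p = 0.0967). A second read 8.08, 8.17 and 7.95 in Hsf4-null lenses, against 8.54, 8.76 and 9.01 in wild-type lenses, and fell by 0.70 (SE 0.14, adjusted p = 0.0424). In both, each Hsf4-null array was below each wild-type array, while the last of the 3 overlapped at -0.29 (adjusted p = 0.435). The call of the second was lost without any single Hsf4-null array or without wild-type replicate 2 or 3 (adjusted p = 0.0848 to 0.159). Pax6 overlapped between the groups, at 0.17 (SE 0.22, adjusted p = 0.768). Cornea and skin also express Cdh1, Tfap2a and Pdpn, and 0 of their 13 markers were called, with 10 below the array medians and a median of 0.0. Their summed intensities were 1800 to 2718 in Hsf4-null lenses and 1612 to 2011 in wild-type lenses. These sums rest mostly on Perp, by far the brightest, which was not called at 0.31 (SE 0.19).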

How the data were processed

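Newborn Hsf4-null and wild-type lenses were profiled on Affymetrix mouse expression arrays. The authors applied RMA, and the deposited values are intensities on a linear scale, 1 for each probe set and array. The sources used here do not state the RMA version. Log2 was taken, 64 array control probe sets were dropped from 22690, and the remaining 22626 were fitted in R 4.3.3 with limma 3.58.1 (functions lmFit and eBayes, no block), with Benjamini-Hochberg adjustment over all of them, calls at an adjusted p under 0.05 and 95% intervals. The tables were made in Python 3.11.15. A probe set was named where the platform annotation gave 1 symbol, and 20351 symbols were updated through RefSeq gene identifiers.

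The 10 genes and the lists around them were chosen with earlier results of these data known. By rule the text names all members, Hsf4, up to 2 called genes of each list in each direction, relatives of a member, and the 3 genes most like the called member with the largest change. The 5 measured blood markers, with 0 calls and a median log2 fold change of 0.08, served as a further check. The 14 crystallin genes gave 0 calls and a median of -0.03.

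Alternatives were the methods' t-test with and without adjustment, a block for the replicate number, robust variance with a trend, quantile normalization, median centring, leaving out dim probe sets, 1 probe set per gene, a minimum fold of 1.5, and leaving out each array. SAM, which the methods pair with the t-test, was not run. Precision is limited by the number of arrays, and with 3 arrays against 3 an exact permutation test cannot go below 0.1, so p-values rest on the model across probe sets.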

Additional observations from a re-analysis of the deposited data

How the results depend on the processing

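Of 149 fold changes of the 10 genes under the alternatives, 1 changed sign (Sfrp1, close to 0). The 0.05 threshold was passed by 5 (4 for the brightest Igfbp5 probe set and 1 for Sfrp2). Of the Igfbp5 passes, 1 was the methods' t-test at an unadjusted p of 0.0156. With Benjamini-Hochberg adjustment that t-test gave 0.27. The count of member probe sets called was 1, and became 3 with the unadjusted t-test of the methods (both of Igfbp5 and 1 of Tfap2a), 0 after Benjamini-Hochberg adjustment of that test, 0 with 1 probe set per gene, and 2 with trended and robust variance, with median centring and without dim probe sets, each time both of Igfbp5. With an array left out it was 0 to 1, the 1 being Sfrp2 without Hsf4-null replicate 2. Over the whole array, 602 calls became 2912 with the unadjusted t-test, 85 after its adjustment, 366 with 1 probe set per gene, which tests fewer features, and 321 to 562 with an array left out, the lowest being 321 without Hsf4-null replicate 3, 335 without wild-type replicate 2 and 358 without wild-type replicate 3. The other lens epithelium genes, with 0 calls, had 2 with the t-test, 1 with trended and robust variance (Wls) and 0 to 1 with an array left out (Wls, without wild-type replicate 1). The 6 lens fiber calls became 3 with the adjusted t-test and 5 to 6 with an array left out. Deviations of same-numbered arrays from their group means correlated at 0.252, -0.206 and -0.081. With 3 arrays in each group, such values cannot settle whether the numbers pair the samples. With the replicate number as a block there were 382 calls over the array and 1 among the members, and Fzd2, Gjc1 and the second Wls probe set did not pass (adjusted p = 0.0827, 0.118 and 0.106). After adjustment of the t-test, Cd44, Hopx, Twist1 and that Wls probe set missed the threshold (0.105, 0.0577, 0.075 and 0.228). So did Col1a1, Slc7a8, Fzd2 and Gjc1 (0.237, 0.237, 0.247 and 0.229), while Bfsp1 and Tdrd7 passed (0.0268 and 0.0454). The Wls one also missed it with median centring (0.0641). Other scalings moved the median of all probe sets to at most 0.009. Where a changed count was not explained by the setting's own construction, the cause was not tested. Abca8a and Foxe3 lay below the array medians, as did several relatives of the members, and a difference there could not be told from background.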

Other observations

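The genes whose levels over the 6 arrays were most like those of Sfrp2, which was chosen for this after its values were seen, were Golm1 (Pearson r = 0.995), Col18a1 (r = 0.993) and Pxmp4 (r = 0.987), among 6880 genes, given as a description. Col18a1, which encodes a basement membrane collagen, read 9.96, 9.52 and 10.14 in Hsf4-null lenses, against 9.54, 9.41 and 9.0 in wild-type lenses. Its groups overlapped, since Hsf4-null replicate 2 lay below wild-type replicate 1, and its log2 fold change of 0.55 (SE 0.20) did not pass (adjusted p = 0.24 from limma). None of the 3 was called.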
